A study of Homo sapiens with 6 samples.

Results

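The genes described here are the protein-coding genes named for subunits of the oxidative phosphorylation system in SZ95 sebocytes, an immortalised human cell line from the sebaceous gland. They were taken by gene symbol from a table of 58735 genes, as every protein-coding gene whose symbol begins with MT- or follows the naming of complex I (NDUFA, NDUFB, NDUFC, NDUFS and NDUFV, without the NDUFAF assembly factors), complex II (SDHA to SDHD), complex III (UQCR and CYC1), complex IV (COX4 to COX8) or complex V (ATP5). This gave 105 genes, 13 encoded by the mitochondrial genome and 92 by the nuclear genome. The 92 include a few that are not subunits, such as ATP5IF1, ATP5S and the readthrough genes NDUFC2-KCTD14 and ATP5MF-PTCD1. These are counted with the nuclear subunits below. The cells, labelled wild type, received a mock plasmid (3 libraries) or a plasmid that overexpresses TRPV3 (3 libraries), and every library is labelled 24 h. TRPV3 is a calcium-permeable cation channel of skin cells, and the design text names its part in sebocyte inflammation as the question and calls the replicates biological. All 6 libraries come from 1 cell line, and which promoter drives TRPV3 is a detail not given in the sources used.

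Oxidative phosphorylation passes electrons from NADH and succinate through complexes I to IV to oxygen and uses the proton gradient this builds to make ATP in complex V. Its subunits come from 2 genomes: the circular mitochondrial genome supplies core membrane subunits of complexes I, III, IV and V, and nuclear genes supply the remaining subunits and the whole of complex II. The mitochondrial mRNAs are cut from long transcripts of either strand, mostly at the tRNAs that lie between them. Nuclear genes in general have separate promoters.

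The places where neighbouring mitochondrial mRNAs overlap by more than 1 base are shown first, because the values of these genes are compared below. MT-ATP6 and MT-CO3 also meet without a tRNA between them and share 1 base. MT-ATP8 (chrM:8366-8572) and MT-ATP6 (chrM:8527-9207) are read in different frames from 1 transcript and share 46 bases, in capitals here within chrM:8487-8612 (GRCh38, forward strand, GENCODE 29).
MT-ATP8 and MT-ATP6: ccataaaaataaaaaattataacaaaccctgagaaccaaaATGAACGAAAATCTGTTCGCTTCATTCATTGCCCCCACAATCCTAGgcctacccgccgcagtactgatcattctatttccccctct
MT-ND4L (chrM:10470-10766) and MT-ND4 (chrM:10760-12137) share 7 bases, in capitals within chrM:10720-10806 of the same build and strand; the capitals hold the start codon of MT-ND4 and the stop codon of MT-ND4L.
MT-ND4L and MT-ND4: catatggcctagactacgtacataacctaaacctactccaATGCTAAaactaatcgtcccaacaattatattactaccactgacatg

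On the nuclear side, promoters are shown that hold the letters bound by NRF1, a transcription factor known for respiratory chain genes. RefSeq promoters (GRCh38.p14, 250 bases before to 50 after the gene start) matched 72 of the 92 nuclear genes. On either strand, the palindromic NRF1 motif, whose letters are the capitals below, was in 4 of these, NDUFA8, ATP5F1C, NDUFB4 and SDHD, and in 1.24% of all 35116 promoters. For NDUFB4 (chr3:120596142-120596221) and SDHD (chr11:112086728-112086772), where the motif lies upstream of both the RefSeq and the GENCODE 29 gene start, the stretch around it is given on the forward strand.
NDUFB4: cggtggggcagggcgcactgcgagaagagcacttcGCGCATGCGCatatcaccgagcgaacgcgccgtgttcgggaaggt
SDHD: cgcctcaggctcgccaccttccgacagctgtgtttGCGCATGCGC
Among the 64 genes that were both matched and tested, the full motif was in 6.25%, the shorter CATGCGC, which lies within it, in 21.9% (4.43% of all promoters), the ETS motif CCGGAAGT in 14.1% (4.14%) and the cAMP response element TGACGTCA in 7.81% (1.85%). The share over all promoters was not limited to tested or protein-coding genes, and a comparison with other tested genes was not made. A match is a description of the letters and not a measured site.

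The values are FPKM, read fragments per kilobase of gene, scaled to library depth, as deposited, and whole reads could be recovered from them. The gene length is that of all merged exons. The deposited scaling did not follow the read totals in each library. TRPV3 replicate 1 held 18.4 M reads but was scaled by 17.6 M, which raises its values. Mock replicate 3 held 17.4 M but was scaled by 18.2 M, which lowers them. Scaling to total reads is among the alternatives at the end. Mock libraries held 16 to 17.5 M reads and TRPV3 libraries 17.4 to 18.4 M, at which 3 reads, the count that 0 still allows, equal 0.165 to 0.185 FPKM for a gene of 1 kb. TRPV3 itself was at 0.437, 0.359 and 0.415 FPKM after the mock plasmid and at 536, 671 and 738 FPKM after its own (log2 fold change 8.84, SE 0.12, limma adjusted p = 2.7e-07), so the libraries match their labels. A pair of libraries stood apart. TRPV3 replicate 1 differed from the other TRPV3 replicates with a chi-square per degree of freedom of 57.7 and 67.0, against 2.72 to 8.29 for the other pairs within a group, and mock replicate 3 had reads in 34467 genes against 22311 to 23072 elsewhere. Class, complex and list medians are therefore given with and without TRPV3 replicate 1, and so are many single genes. For the other genes only the value with all 6 libraries is given. Of 12 sebocyte markers 8 reached 1 FPKM, with a summed level of 833 to 871 FPKM in mock and 851 to 926 in TRPV3 libraries, led by KRT7, SCD and FASN; AWAT2 was at 0 in every library and AWAT1 and MC5R were under 1 FPKM. Keratinocyte markers summed to 180 to 216 and 189 to 196 FPKM (5 of 10 at 1 FPKM or more, mostly KRT5). Fibroblast (1 of 7), leukocyte (1 of 6), melanocyte (0 of 5) and endothelial (1 of 4) markers summed to at most 3.05 FPKM in any library, and LUM, DCN, PTPRC and CD3E were near 0.

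No oxidative phosphorylation gene was called between TRPV3 and mock cells. Of the 105 genes, all 13 mitochondrial and 80 nuclear ones reached a mean of 1 FPKM and were tested with limma on log2(FPKM + 1) among 12177 genes, of which 5, or 0.0411%, were called at an adjusted p under 0.05, all of them higher (5 higher and 1 lower under TPM scaling). The smallest adjusted p was 0.755 in either class. Before adjustment, 1 mitochondrial gene, MT-ATP8, and 3 nuclear genes, NDUFA1, NDUFB8 and ATP5ME, had a limma p under 0.05, all with higher values in TRPV3 cells, which is 3.75% of the nuclear genes against 4.48% of all genes. Leaving out mock replicate 3 took this nuclear count to 0, with 2.47% of all genes, and leaving out TRPV3 replicate 3 took it to 12, with 7.28% of all genes. Limma-voom on the recovered reads also called no member (0.0493% of all genes), with 1 mitochondrial and 5 nuclear genes at an unadjusted p under 0.05 (4.34% of all genes). Without TRPV3 replicate 1, limma called 0.0657% of all genes and limma-voom 0.550%, again with no member among them. At an unadjusted p under 0.05, limma without that library gave 1 mitochondrial and 3 nuclear members (7.06% of all genes) and limma-voom 1 and 10 (7.23% of all genes). NDUFA1, NDUFB8 and ATP5ME share exon bases with other genes, as given below.

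The share of reads in the mitochondrial members overlapped between the groups, and that in the nuclear members was high in 1 TRPV3 library. Mitochondrial mRNAs held 3.99, 3.93 and 3.40% of all mock reads and 3.77, 3.81 and 3.52% of all TRPV3 reads (3.77 ± 0.324% and 3.70 ± 0.155%, SD, n = 3 each). The groups overlapped, and the lowest share was in mock replicate 3. Nuclear members held 0.918, 0.976 and 0.950% in mock and 1.26, 0.958 and 0.935% in TRPV3 libraries (0.948 ± 0.0293% and 1.05 ± 0.182%). Only TRPV3 replicate 1 was above the mock range, and without it the TRPV3 mean was 0.947%. Reads from mitochondrial members per read from nuclear members were accordingly 4.35, 4.02 and 3.58 in mock and 2.98, 3.97 and 3.77 in TRPV3 libraries, with means of 3.98 ± 0.386 and 3.57 ± 0.522, or 3.87 without TRPV3 replicate 1. In bulk RNA, fewer cells of a type and less RNA per cell cannot be told apart.

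**Figure D1:**
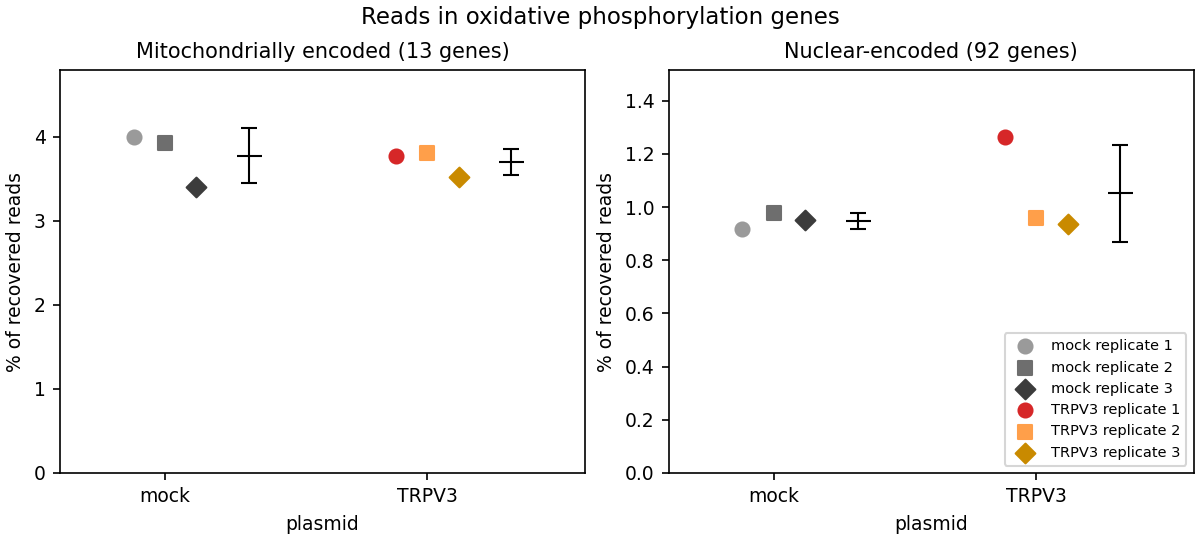
Share of recovered reads (%) in the 13 mitochondrially encoded genes (left) and the 92 nuclear-encoded genes (right), one point per library, by plasmid, with the mean and SD of 3 libraries beside the points. The mitochondrial shares overlap between groups, and on the right 1 TRPV3 library, replicate 1 at 1.26%, lies above all others.

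The 13 mitochondrial genes were among the most abundant in these cells: 7 of the 10 genes of highest mean FPKM and 11 of the top 20 were mitochondrial members. Their mean levels spanned 114 FPKM for MT-ATP8 to 8681 FPKM for MT-CO2, with a median of 1619, whereas the 80 tested nuclear genes spanned 1.15 to 324 FPKM with a median of 38.4. The complex IV mRNAs stood at the top. MT-CO2, which carries the copper centre that accepts electrons from cytochrome c, was at 8642, 8444 and 6885 FPKM in mock and 11613, 8650 and 7853 in TRPV3 libraries. MT-CO1, the catalytic subunit, was at 6566, 6505 and 5918 against 6481, 6471 and 6022 FPKM, and MT-CO3 at 6069, 6148 and 5386 against 7964, 6020 and 5565. The highest value of MT-CO2 and of MT-CO3 was in TRPV3 replicate 1, while MT-CO1 in that library lay within the mock range; the groups overlapped for all 3. Their log2 fold changes were 0.22 (SE 0.21), 0.00 (SE 0.14) and 0.14 (SE 0.19). Without TRPV3 replicate 1 they were 0.05, -0.02 and -0.02.

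Among the complex V subunits, MT-ATP6 forms the proton channel with the c-ring and MT-ATP8 is a small subunit beside it. MT-ATP6 was at 4643, 4357 and 3656 FPKM in mock and 3940, 4209 and 3796 in TRPV3 libraries, with overlapping groups. MT-ATP8 was at 95.7, 117 and 86.2 FPKM in mock and 114, 135 and 137 in TRPV3 libraries. TRPV3 replicate 1 lay just under the highest mock library, and the other TRPV3 libraries were above all mock ones. MT-ATP8 thus differed by 0.37 on the log2 scale (SE 0.14), with an adjusted p of 0.755 in limma, and by 0.45 (SE 0.12), with an adjusted p of 0.423 in limma, without TRPV3 replicate 1. Although both lie on 1 transcript and share the 46 bases shown above, MT-ATP8 was deposited at 0.0206, 0.0269 and 0.0236 of the level of MT-ATP6 in mock and 0.0289, 0.0320 and 0.0360 in TRPV3 libraries, with every TRPV3 library above every mock one. MT-ATP8 had only 325 to 499 reads per library, and the assignment of reads in the shared bases is not stated in the sources used.

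The 7 mitochondrial subunits of complex I, which build its proton-pumping membrane arm, formed an abundant pair and a lower group of 5. MT-ND4 was at 4125, 4034 and 3405 FPKM in mock and 3262, 3877 and 3531 in TRPV3 libraries. MT-ND4L was at 3198, 3080 and 1977 FPKM in mock and 1103, 3002 and 2919 in TRPV3 libraries. The value of MT-ND4L in TRPV3 replicate 1 was the lowest of the 6, under every mock library, while its other TRPV3 libraries lay inside the mock range. The level of MT-ND4L relative to MT-ND4 was 0.775, 0.764 and 0.581 in mock and 0.338, 0.774 and 0.827 in TRPV3 libraries. The log2 fold change of MT-ND4L was -0.34 (SE 0.41) with all libraries and 0.14 (SE 0.20) without TRPV3 replicate 1. With mock replicate 3 left out as well it was -0.08, so its sign depended on the libraries used.

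MT-ND5 followed the same order, at 1336, 1265 and 909 FPKM in mock and 660, 1196 and 1138 in TRPV3 libraries. Its lowest value was again in TRPV3 replicate 1, and its log2 fold change went from -0.26 (SE 0.26) to 0.02 (SE 0.16) without that library. MT-ND3 was at 1407, 1484 and 984 against 2015, 1423 and 1384 FPKM, with its highest value in TRPV3 replicate 1. Its log2 fold change was 0.32 (SE 0.22), and 0.14 without that library. MT-ND2 ranged from 1332 to 1804 FPKM in mock and 1535 to 1701 in TRPV3 libraries, and MT-ND1 from 1240 to 1595 and 1302 to 1487. MT-ND6, the only one of the 13 on the opposite strand (chrM:14149-14673), ranged from 1141 to 1539 and 1307 to 1699 FPKM. The labels do not say whether counting used strand, so MT-ND6 and the transcript opposite it cannot be told apart. MT-CYB, the cytochrome b of complex III, ranged from 1262 to 1733 FPKM in mock and 1412 to 1522 in TRPV3 libraries. For these 4 genes every TRPV3 value but that of MT-ND6 in replicate 1 lay within the mock range.

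**Figure D2:**
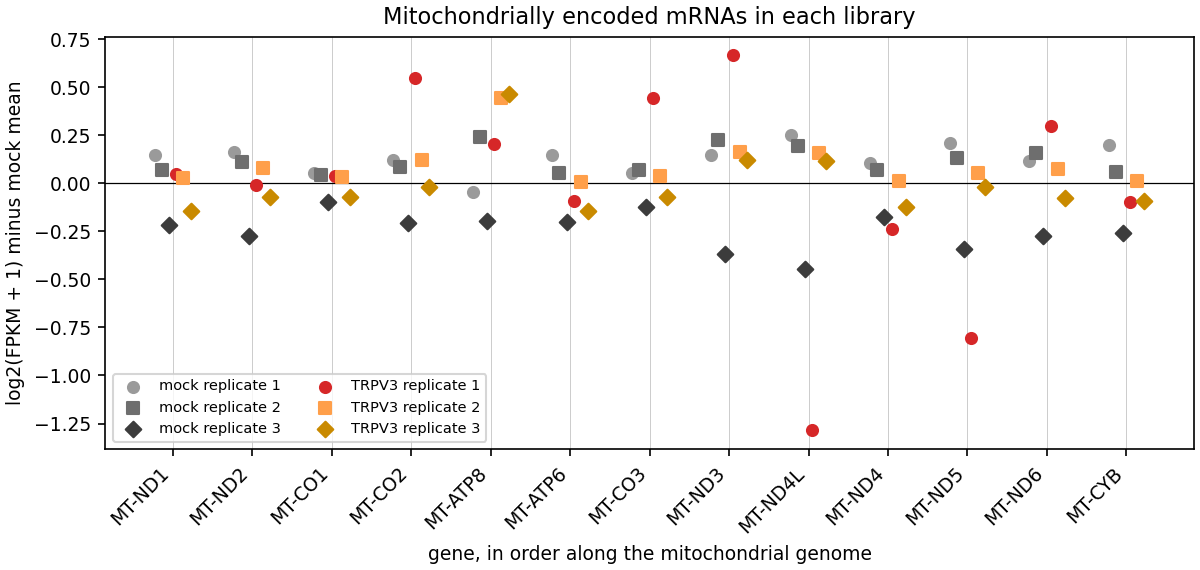
Level of the 13 mitochondrial mRNAs in each library as log2(FPKM + 1) minus the mean of the mock libraries, in gene order along the mitochondrial genome; each point is 1 library. TRPV3 replicate 1 lies at -1.29 for MT-ND4L and -0.81 for MT-ND5 and at 0.66 for MT-ND3, while the other TRPV3 libraries stay between -0.15 and 0.16 except for MT-ATP8, at 0.44 and 0.46.

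Single libraries of either plasmid stood at the ends of the range in the mitochondrial set. Mock replicate 1 was the highest of the 6 libraries for 8 of the 13 genes and mock replicate 3 the lowest for 10, with median deviations from the mock mean of 0.15 and -0.22 on the log2 scale. TRPV3 replicate 1 was above every mock library for 4 genes and below every mock library for 3 (MT-ND4L, MT-ND4 and MT-ND5), where 44.5% and 38.6% of all genes were. Neighbouring genes differed within that library: MT-ATP6 relative to MT-CO3 was 0.495 there and 0.679 to 0.765 elsewhere, MT-ND5 relative to MT-CYB 0.467 against 0.720 to 0.806, and MT-CO2 relative to MT-CO1 1.79 against 1.16 to 1.34. Over the 13 genes the median log2 fold change was -0.00045 and 5 were above 0; without TRPV3 replicate 1 it was -0.0016 and 6 were above 0. The sign of this median changed between alternatives, from -0.14 with a gene-length trend removed to 0.05 without mock replicate 1, so no direction is given for the set. With TRPV3 replicate 1 and mock replicate 3 both left out, 1 of the 13 genes was above 0, MT-ATP8 at 0.36. All genes then had a median of -0.002. In that fit 4 mitochondrial and 3 nuclear members had an unadjusted limma p under 0.05, and 0 were called. The shares over all genes for that count and for values above 0 in that fit were not computed. Neither is therefore read as a change of the mitochondrial set. With all 6 libraries, in none of the 13 genes did all TRPV3 libraries lie on 1 side of all mock libraries.

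Nuclear pseudogenes carry copies of these mitochondrial sequences. Of 394 mitochondrial pseudogenes measured, 3 reached 1 FPKM: MTATP6P1 at 130 to 168, MTND2P28 at 79.9 to 178 and MTCO1P12 at 13 to 16.5 FPKM over the 6 libraries. Together the pseudogenes held 0.0220 to 0.0312% of reads, and their part in the member values was not tested.

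The nuclear subunits were higher in TRPV3 replicate 1 as a class, and near the mock level in the other TRPV3 libraries. Of the 80 tested genes, 79 (98.75%) were above every mock library in TRPV3 replicate 1, where 44.5% of all genes were, and the same 79 had their highest value of the 6 libraries there (40.9% of all genes). The exception was NDUFS1. TRPV3 replicates 2 and 3 were above every mock library for 35 and 21 of the 80 genes (43.75% and 26.25%, against 27.1% and 25.6% of all genes). The median deviation of the 80 genes from the mock mean was 0.56 in TRPV3 replicate 1, 0.08 in replicate 2 and 0.02 in replicate 3, with -0.02, 0.06 and -0.03 in the mock libraries. Over the whole comparison the median log2 fold change was 0.22, with 78 of 80 genes above 0 against 53.0% of all genes, whose median was 0.01. Without TRPV3 replicate 1 the median was 0.06 with 55 of 80 above 0, against 53.7% of all genes. The SD of the library medians within groups was 0.21, close to the median fold change itself.

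Gene length moved with the values of TRPV3 replicate 1, and among the members with those of other libraries too. Across genes, Spearman's correlation of gene length with the deviation of TRPV3 replicate 1 was -0.52 over all tested genes, -0.45 over the 80 nuclear and -0.40 over the 13 mitochondrial members (genes are not independent replicates, and all share 1 library). In the other libraries it lay between -0.20 and 0.27 over all genes and between -0.43, in TRPV3 replicate 2, and 0.25 over the nuclear members. Over the mitochondrial members it was -0.60 in mock replicate 2 and in TRPV3 replicate 2, -0.42 in TRPV3 replicate 3, and 0.15 and 0.25 in mock replicates 1 and 3. The tested nuclear members had a median length of 2469 bases and the mitochondrial ones 784, against 4593 for all tested genes. Among the nuclear members of 507 to 1941, 1975 to 3556 and 3658 to 14160 bases (27, 27 and 26 genes), the median deviation in TRPV3 replicate 1 was 0.69, 0.53 and 0.43, beside 0.38, 0.24 and -0.09 for all genes in those length ranges. With a length trend removed from each library, the nuclear median log2 fold change was 0.14 with 75 of 80 above 0, and the mitochondrial median -0.14. The part of length in the member values beyond these figures was not tested.

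**Figure D3:**
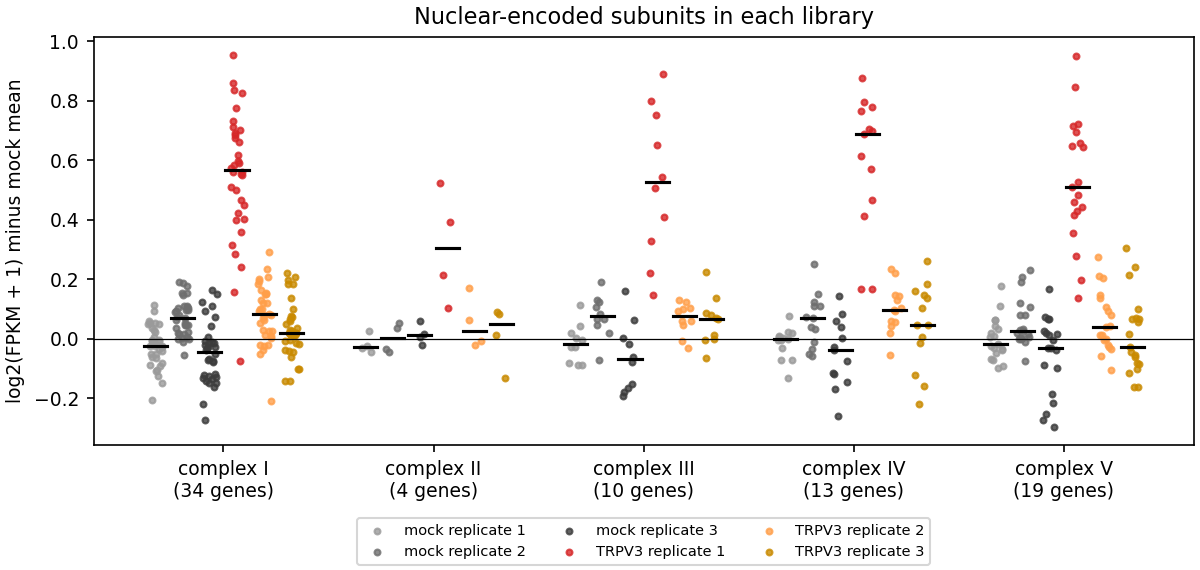
Deviation of each tested nuclear-encoded gene from its mock mean, log2(FPKM + 1), by complex and library; points are genes and black bars are medians. The bars of TRPV3 replicate 1 stand above those of the other 5 libraries in each complex, from 0.30 in complex II to 0.69 in complex IV.

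Each complex showed this pattern. Median log2 fold changes were 0.23 for complex I (34 genes), 0.12 for complex II (4), 0.20 for complex III (10), 0.26 for complex IV (13) and 0.16 for complex V (19); without TRPV3 replicate 1 they were 0.05, 0.04, 0.07, 0.09 and 0.02. In 15 of the 80 genes (18.75%) every TRPV3 library was above every mock library, where 9.49% of all genes were, and in none was every TRPV3 library below, where 5.39% were. Those 15 were NDUFA1, NDUFB1, NDUFB3, NDUFB8, NDUFS5 and NDUFV3 of complex I, SDHB and SDHD of complex II, COX7A2L, COX7C and NDUFA4 of complex IV, and ATP5MD, ATP5ME, ATP5MPL and ATP5PB of complex V.

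In complex I, NDUFS5, an accessory subunit (chr1:39026318-39034636), had the highest mean of the nuclear complex I genes. It was at 281, 292 and 242 FPKM in mock and 481, 301 and 313 in TRPV3 libraries. The groups did not overlap, though replicates 2 and 3 exceeded the highest mock library by little (0.40 on the log2 scale, SE 0.19, with an adjusted p of 0.755 in limma), and the difference was 0.18 (SE 0.08) without TRPV3 replicate 1. NDUFB7, another accessory subunit, was at 117, 130 and 144 against 206, 131 and 130 FPKM, where only TRPV3 replicate 1 left the mock range. NDUFA1, a small membrane subunit needed for assembly (chrX:119871487-119876662), was at 26.9, 26.8 and 21.1 against 43.2, 30.6 and 28.3 FPKM, without overlap (log2 fold change 0.42, SE 0.17, and 0.24, SE 0.11, without TRPV3 replicate 1). Of the principal transcript of NDUFA1 (GENCODE 29), 44.5% is also exon of RNF113A on the opposite strand. Whether counting used strand is not stated, so the part of RNF113A in these values is uncertain. NDUFS1, the largest iron-sulfur subunit of the electron-input arm, was at 18.9, 18.5 and 17.3 against 17.3, 19.0 and 18.1 FPKM, a log2 fold change of -0.01 (SE 0.08).

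Complex II, succinate dehydrogenase, links the citric acid cycle to the chain and is all nuclear. SDHB, its iron-sulfur subunit, was at 48.4, 51.3 and 50.1 FPKM in mock and 72.2, 52.1 and 53.2 in TRPV3 libraries, with the groups just apart. SDHA, the flavoprotein that oxidises succinate, was at 45.9, 43.6 and 45.5 against 52.4, 44.8 and 41.0 FPKM, with overlap. The membrane anchors ranged from 17.4 to 18.6 and 19.0 to 23.7 FPKM for SDHD and 9.52 to 10.2 and 9.59 to 10.5 for SDHC. SDHD is among the 4 genes with the NRF1 letters shown above, and those 4 had a median deviation of 0.52 in TRPV3 replicate 1, and the 60 other tested genes with a matched promoter 0.57.

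In complex III, CYC1, the cytochrome c1 that hands electrons to cytochrome c, was at 178, 190 and 196 FPKM in mock and 208, 184 and 180 in TRPV3 libraries, a log2 fold change of 0.02 (SE 0.10). UQCRH, the hinge protein beside it, was at 148, 162 and 142 against 254, 157 and 160 FPKM. Again TRPV3 replicate 1 alone lay above the mock range. UQCRQ, a small accessory subunit, was at 76.2, 87.1 and 66.6 against 142, 81.7 and 89.1 FPKM, with overlap. Its log2 fold change was 0.40 (SE 0.21), and 0.16 without TRPV3 replicate 1. UQCRHL, a near-identical copy of UQCRH, was at 2.01 to 3.54 FPKM, and how reads were split between the copies is uncertain.

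In complex IV, COX8A had the highest mean FPKM of the 80 nuclear genes. It was at 298, 324 and 360 FPKM in mock and 367, 314 and 280 in TRPV3 libraries. Its log2 fold change was -0.04 (SE 0.13), with the highest and the lowest value both in TRPV3 libraries. The rank depended on the length used. Per kilobase of the principal transcript, the mock means of COX4I1 (466), ATP5F1B (383) and UQCRH (351) were above that of COX8A (328). COX5A, a subunit on the matrix side, was at 106, 114 and 94.5 against 161, 115 and 108 FPKM. COX7B had a log2 fold change of 0.46 (SE 0.20) with an adjusted p of 0.755 in limma, at 16, 19.1 and 13.1 against 30.0, 18.8 and 19.2 FPKM. TRPV3 replicate 2 lay inside the mock range, so the groups overlapped, and without TRPV3 replicate 1 the fold change was 0.25 (SE 0.13).

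Several complex IV subunits have tissue-specific isoforms, and here the broadly expressed form held nearly all the signal. COX4I1 was at 80.5, 89.1 and 84.9 FPKM in mock and 145, 85.8 and 85.1 in TRPV3 libraries, while COX4I2, the form known from lung, had at most 1 read in a library. COX6A1 ranged from 45.5 to 66.4 FPKM and COX6A2, of heart and skeletal muscle, had 0 reads in every library. COX6B1 ranged from 83.5 to 138 and the testis form COX6B2 from 1.18 to 1.74 FPKM. COX7A2 was at 37.0 to 73.4 and COX7A2L, a respiratory supercomplex factor related to it, at 12.9 to 18.7 FPKM, against at most 0.327 for the muscle form COX7A1. COX7B2 had reads in 1 library only, mock replicate 3, at 0.204 FPKM, and COX8C had none. NDUFA4, which despite its name is a subunit of complex IV, was at 26.2, 25.5 and 22.8 against 37.3, 27.5 and 28.3 FPKM, with the groups apart, and NDUFA4L2, known as a hypoxia-induced relative, was at 0.122 to 0.505 FPKM. At this depth the forms with 0 reads were not detectable, which does not show them absent.

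In complex V, ATP5F1B, the catalytic beta subunit, was at 299, 309 and 303 FPKM in mock and 348, 303 and 294 in TRPV3 libraries, a log2 fold change of 0.05 (SE 0.10). ATP5MD, a small subunit of the membrane sector, was at 107, 118 and 86.1 against 186, 119 and 119 FPKM, just without overlap. Its log2 fold change was 0.42 (SE 0.20), and 0.21 without TRPV3 replicate 1. ATP5F1E, the epsilon subunit of the central stalk, was at 32, 39.1 and 29 against 65.0, 36.8 and 39.4 FPKM and had a deviation of 0.95 from the mock mean in TRPV3 replicate 1. ATP5ME, a membrane subunit chosen here after its values were seen, was at 5.45, 5.44 and 4.15 against 8.68, 6.24 and 6.38 FPKM. Its groups did not overlap (log2 fold change 0.43, SE 0.15), and without TRPV3 replicate 1 it was 0.29 (SE 0.11, limma adjusted p = 0.665). ATP5ME had 71 to 144 reads per library. Of its principal transcript, 49.9% is also exon of MYL5 on the opposite strand, so its level is uncertain too.

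The c-ring subunit is made from 3 genes that encode the same mature protein. In mock cells ATP5MC1 was at 44.3 ± 2.28, ATP5MC3 at 35.1 ± 2.09 and ATP5MC2 at 23.4 ± 0.297 FPKM (SD, n = 3). These FPKM divide by all merged exons of a gene; per kilobase of the principal transcript, an alternative chosen after seeing the data, the levels were 189 ± 9.69, 43.4 ± 2.58 and 47.8 ± 0.607. ATP5MC1 was highest on either scale, while the order of ATP5MC2 and ATP5MC3 depended on the length used. In the TRPV3 libraries the 3 genes ranged from 42.3 to 59.4 (ATP5MC1), 32.3 to 48.1 (ATP5MC3) and 22 to 33.1 FPKM (ATP5MC2), with the highest value of each in replicate 1.

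**Figure D4:**
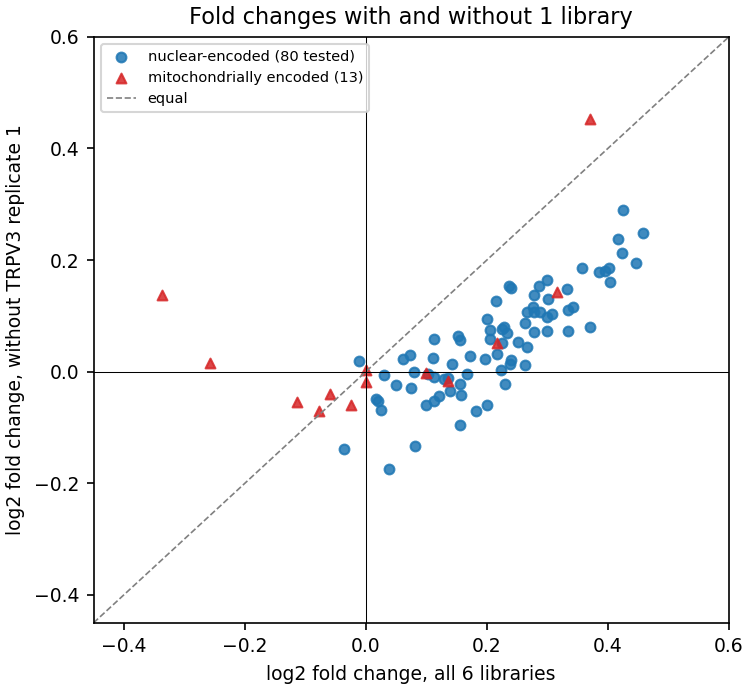
Log2 fold change of each tested member (TRPV3 minus mock) with all 6 libraries (x axis) and without TRPV3 replicate 1 (y axis); circles are nuclear and triangles mitochondrial genes, and the dashed line marks equal values. Most nuclear genes lie below the line, with medians of 0.22 and 0.06, and MT-ATP8 is the highest on the y axis at 0.45.

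The difference between the 2 genomes depended on which libraries were used. The mitochondrial median log2 fold change minus the nuclear one was -0.22 with all libraries and -0.06 without TRPV3 replicate 1, and the SD of the same difference between libraries of a group was 0.23. It was -0.34 without mock replicate 3.

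Members at unusually low levels, among them the core subunit NDUFV2, were looked at by their exons, with a share of 40% chosen after seeing the values. In 8 nuclear members at least 40% of the principal transcript (GENCODE 29) is also exon of another gene on the same strand: ATP5MF-PTCD1 (100%), NDUFV2 (82.9%), NDUFA7 (75.9%), NDUFB8 (71.7%), ATP5PO (70.3%), NDUFA11 (67.0%), ATP5MF (46.2%) and NDUFA13 (44.1%). Their median level was 1.11 FPKM (0.0164 to 37.8), against 36.9 FPKM for the 77 other nuclear members with a principal transcript. Just under the 40% were COX6B2 (37.0%, mean 1.46 FPKM), COX8A (34.5%, mean 324 FPKM) and COX6A1 (30.6%, mean 52.4 FPKM), so a shared exon does not go with a low level in each gene. Sharing with the opposite strand is not in these figures, though whether counting used strand is not stated. It covers 83.4% of the principal transcript of NDUFB2 (mean 14.2 FPKM), 45.8% of NDUFB11 (43.9) and 44.5% of NDUFA1 (29.5), which are among the 77. NDUFV2, a core iron-sulfur subunit of complex I (chr18:9102630-9134345), had 20, 12 and 11 reads in mock and 12, 15 and 13 in TRPV3 libraries. NDUFA13 had 13 to 29 reads and NDUFA7 1 to 12. The genes that overlap NDUFV2, NDUFA7, NDUFB8, ATP5PO and NDUFA11 most on the same strand (AP005263.1, AC010323.1, AL133352.1, AP000311.1 and AC024592.3) had 0 reads in every library. So did AP000721.1, which overlaps the abundant COX8A. AC011448.1, over NDUFA13, had 2 to 13 reads, and PTCD1, over ATP5MF and ATP5MF-PTCD1, had 88 to 132. The assignment of reads in shared exons is not stated in the sources used, and the levels of the 8 genes are uncertain. They include NDUFV2, NDUFA7, NDUFA13 and ATP5MF-PTCD1 among the 12 members not tested; the others not tested are NDUFC2-KCTD14, NDUFA4L2, COX7A1, COX7B2, COX4I2, COX8C, COX6A2 and ATP5MGL, and 8 of the 12 had under 10 reads in every library.

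**Figure D5:**
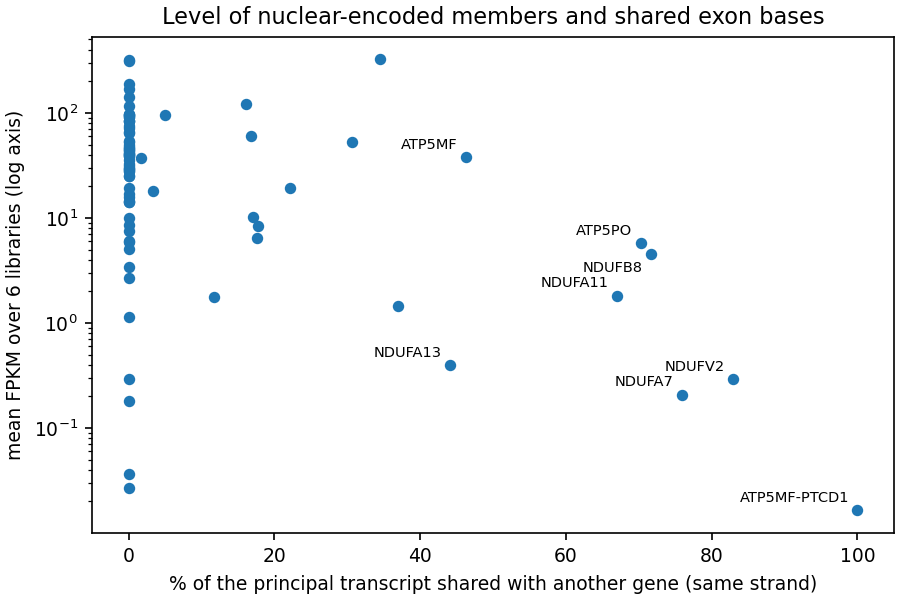
Mean FPKM over the 6 libraries (log axis) of nuclear-encoded members with a principal transcript and at least 1 read, against the percentage of that transcript that is also exon of another gene on the same strand. The genes at 40% or more are named; their median over 8 genes is 1.11 FPKM against 36.9 for the others.

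Genes that make, process and use the mitochondrial mRNAs were read from the same fit, and none was called. The mitochondrial rRNAs, which lie upstream of the mRNAs on the heavy-strand transcript, were higher in each TRPV3 library than in each mock library. The same separation was present in 9.49% of all genes. MT-RNR2 was at 3900, 4073 and 3530 FPKM in mock and 5101, 4580 and 4422 in TRPV3 libraries (log2 fold change 0.29, SE 0.14; 0.23 without TRPV3 replicate 1). MT-RNR1 was at 540, 562 and 474 against 952, 603 and 577 FPKM (0.40, SE 0.20; 0.17 without that library). The limma adjusted p was 0.755 for both; across alternatives that of MT-RNR2 ranged from 0.0461, in limma-voom with sample quality weights, to 0.966. The 20 tested mitochondrial tRNA genes had a median log2 fold change of -0.03 with 10 above 0, and 0.02 with 10 above 0 without TRPV3 replicate 1.

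Nuclear genes that transcribe and maintain the mitochondrial genome had a median of 0.06 over 19 tested with 16 above 0. It was 0.08 without TRPV3 replicate 1, where all genes had 0.01 in either fit. TRPV3 replicates 2 and 3 were each above every mock library for 11 of the 19, against 27.1% and 25.6% of all genes. In 5 of the 19 every TRPV3 library was above every mock library, and in 2 below, where 9.49% and 5.39% of all genes were. POLRMT, the mitochondrial RNA polymerase, was at 13.1 to 15.6 FPKM in mock and 14.0 to 15.9 in TRPV3 libraries, TFAM, which packages the genome, at 15.8 to 18.5 and 17.1 to 19.4, and DGUOK, which supplies deoxynucleotides, at 22.3 to 26.8 and 27.5 to 37.0. For mitochondrial RNA processing and decay the median was 0.09 (19 tested, 13 above 0), and 0.03 without TRPV3 replicate 1. LRPPRC, which stabilises the mitochondrial mRNAs, was at 46.6 to 47.7 in mock and at 38.1, 48.0 and 46.9 FPKM in TRPV3 libraries. HSD17B10, a subunit of mitochondrial RNase P, was at 55.9 to 58.9 and 56.3 to 85.9 FPKM. Among regulators of mitochondrial biogenesis (9 tested, 3 above 0, median -0.05, and 0.04 without that library), PPARGC1A, the coactivator known for inducing respiratory genes, was at no more than 0.021 FPKM in any library. PPARGC1B was at 1.96, 1.64 and 1.78 against 0.967, 1.71 and 1.66 FPKM, with TRPV3 replicate 1 lowest, and ESRRA, a nuclear receptor of this pathway, at 33.8 to 36.5 and 36.9 to 41.8.

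Assembly factors of the complexes had a median of 0.13 (45 tested, 38 above 0) and 0.02 without TRPV3 replicate 1; COA4, an assembly factor of complex IV, was at 38 to 42.2 and 40.9 to 63.4 FPKM. Cytochrome c and coenzyme Q genes had a median of 0.06 (15 tested, 11 above 0) and -0.02 without it. CYCS, the cytochrome c that carries electrons from complex III to IV, was at 46.7, 48.6 and 40.3 against 71.2, 51.9 and 51.8 FPKM, without overlap (0.35, SE 0.14, limma adjusted p = 0.755). Mitochondrial chaperones and proteases (median 0.02, 15 tested, 10 above 0; 0.04 without it) were led by HSPD1 at 269 to 276 and 293 to 363 FPKM. Carriers had a median of 0.12 (8 tested, 7 above 0; 0.00 without it), with SLC25A5, an ADP/ATP exchanger, at 193 to 206 and 192 to 268. The citric acid cycle had a median of 0.07 (17 tested, 11 above 0) and 0.01 without TRPV3 replicate 1, with MDH2 at 87.9 to 98.4 and 87.7 to 126. Glycolysis had 0.03 (17 tested, 11 above 0) and 0.00 without it, with GAPDH at 822 to 844 and 804 to 988. The median of all genes was 0.01 in either fit.

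A like pattern to that of the nuclear subunits was present in 2 families outside the respiratory chain. Mitochondrial ribosomal protein genes had a median log2 fold change of 0.19 (72 of 75 above 0) and a median deviation of 0.51 in TRPV3 replicate 1, and cytosolic ribosomal protein genes 0.27 (81 of 81 above 0) and 0.70. Without that library the medians were 0.04 and 0.08, and the differences between these families and the nuclear subunits were not tested.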

How the data were processed

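RNA of 6 SZ95 libraries was profiled. Per the labels' protocols, TRIzol was used for total RNA and a NEBNext Ultra kit for the libraries; the submitters' processing notes name HISAT2 2.0.5 and hg38. The tool that counted the reads and its use of strand are not given in the sources at hand. The deposited table holds FPKM per gene, with gene lengths and coordinates that equal GENCODE 29 for all 58735 genes. FPKM times length gave whole reads for 100% of values (tolerance 0.02 reads). The limit of 3 reads covers counting error only.

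Values were analysed as log2(FPKM + 1), so fold changes understate those of low genes. The 12177 genes whose mean reached 1 FPKM were fitted with limma 3.58.1 (R 4.3.3; group only, mean-variance trend), with Benjamini-Hochberg adjustment over all of them and calls at an adjusted p under 0.05. Members and lists were described by counts and medians, without a test. limma-voom, with and without sample quality weights, was an alternative on the recovered reads. Members, lists and alternatives were chosen with earlier results of these data known. Genes were named by a rule: every mitochondrial member, per complex the 2 nuclear members of highest mean and those of largest and smallest fold change, isoform groups, the most abundant gene of each list and set regulators; others were chosen after their values were seen, and 1 marker is not reported here by name. Figures used Python 3.11.15 and matplotlib 3.10.9.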

Additional observations from a re-analysis of the deposited data

How the results depend on the processing

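Calls, class medians and the members named were recomputed under 19 alternatives: no filter or one of 5 FPKM, a pseudocount of 0.1, TPM, quantile and total-read scaling, limma without trend, the replicate block, a length trend removed (lowess, span 0.3), 3 limma-voom fits, the removal of TRPV3 replicate 1 with mock replicate 3, and each library left out. No member was called under any of them. Over all genes the calls numbered 5 higher and 0 lower, against 119 and 29 in limma-voom with sample quality weights, 66 and 1 in limma-voom without TRPV3 replicate 1, and 2 to 10 in total in the others. The nuclear median stayed above 0, between 0.03 and 0.32, with 52 to 81 genes above 0; leaving out 1 library gave 0.06 (TRPV3 replicate 1) to 0.32 (TRPV3 replicate 3). The mitochondrial median lay between -0.14 and 0.05, and leaving out 1 library gave -0.13 (mock replicate 3) to 0.05 (mock replicate 1). Their difference lay between -0.34 and -0.06. Of 721 values of 38 tested members, 88 moved by over 1 SE and 20 members changed sign at least once, 10 of them mitochondrial. With the replicate block, 0 members were called, 2 genes were higher and 1 lower over all genes, and the medians were -0.00045 and 0.22; deviations of same-numbered libraries correlated at -0.27, -0.04 and -0.17, so the numbers were not taken to pair the samples. With a mean under 1 FPKM, 12 members were not tested. For NDUFV2, NDUFA7, NDUFA13 and ATP5MF-PTCD1 among them, the level itself is uncertain because of shared exons.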
